A study of Homo sapiens with 9 samples.

Results

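The zinc finger genes of chromosome 19 were measured by RNA sequencing in an OPA1 knock-down experiment in Huh7, an established human liver cancer line. The 207 genes described are the protein-coding genes on chromosome 19 whose symbol is ZNF followed by a number and whose mean level over the 9 libraries was at least 1 CPM, the usual depth-scaled unit of read counts. They were thus selected on position, name and mean level, not on any difference between groups, although the family itself was picked with earlier results of these data known. They were drawn from 247 such genes at any level and from a table of 60448 rows, of which 15019 passed the filter on low counts and were tested. All 207 were tested. Of the members, 64 lie on the short arm, 19p, out of 83 genes there, and 143 on the long arm, 19q, out of 164.

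Total RNA of 3 groups of 3 libraries was sequenced: OPA1 knock-down set N_30, OPA1 knock-down set N_28, and control. Per the labels, cells were grown in DMEM and lentivirus was used for the knock-down, and the control libraries carry the same treatment text. The labels do not say what N_30 and N_28 stand for. Nor do they say that the 3 libraries of a group are separate cultures, and the p-values then rest on a spread that may be technical. OPA1, a GTPase that fuses the inner mitochondrial membrane, averaged 64.4 ± 1.298 CPM in N_30, 55.5 ± 2.24 CPM in N_28 and 88.7 ± 5.28 CPM in control libraries (SD, n = 3 each). Its log2 fold change was -0.46 in N_30 (edgeR quasi-likelihood test, adjusted p = 0.00221) and -0.68 in N_28 (adjusted p = 1.38e-05) against control.

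Libraries held 16476389 to 22863328 counts. The libraries numbered 3 stood apart on the second principal component in all 3 groups, at 10.9 to 19.1 against at most 2.85 elsewhere. Markers of the labelled cell type were low. Of 14 hepatocyte markers, 7 averaged at least 1 CPM in N_30, 3 in N_28 and 5 in control libraries, and the 14 summed to at least 21.9 CPM in N_30, at most 10.95 CPM in N_28 and 19.5 to 22.1 CPM in control libraries. APOB had 0 counts in all 9 libraries, and ALB had 0 counts in all 3 N_28 libraries and at most 0.601 CPM elsewhere. Of the 7 hepatocyte markers tested, 5 were higher in N_30 than in N_28 (FGG, TF, FGA, SERPINA1 and FGB) and none was lower. Against control, 0 were called in N_30, and in N_28 4 were lower: TF (log2 fold change -3.09, adjusted p = 0.000609), SERPINA1 (-2.84, adjusted p = 0.0224), FGA (-1.89, adjusted p = 0.000902) and FGG (-1.61, adjusted p = 0.00218). TF, for example, averaged 5.20 CPM in N_30, 0.446 CPM in N_28 and 4.002 CPM in control libraries. All 7 mesenchymal markers averaged at least 1 CPM in every group (sums of 2568 to 2738 CPM in N_30, 2327 to 2454 CPM in N_28 and 2530 to 2703 CPM in control libraries), as did 3 of 5 epithelial markers (sums of 569.5 to 601.2 CPM in N_30, 385.7 to 430.1 CPM in N_28 and 468.9 to 542.5 CPM in control libraries) and 0 of 5 blood markers, which summed to at most 0.537 CPM. The hepatocyte, epithelial and mesenchymal sums were all higher in N_30 than in N_28 without overlap, and their part in the differences between these groups was not tested. In bulk RNA, fewer cells of a kind and less RNA per cell cannot be told apart.

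Most proteins of this family carry a row of C2H2 zinc fingers that bind DNA, and many also carry a KRAB domain. KRAB recruits TRIM28, which brings the histone methyltransferase SETDB1 and heterochromatin proteins, so that the target, often a retrotransposon, is silenced. The genes arose by repeated tandem duplication and stand in clusters along both arms of chromosome 19, and the clusters themselves carry H3K9 methylation in many cell types.

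RefSeq promoter windows (GRCh38.p14, 250 bases before to 50 after the gene start) were found for 188 of the 207 members. An ETS core, CCGGAAGT on either strand, was in 42 of the 188 windows (22.3%), in 29 of 175 windows of ZNF genes of other autosomes (16.6%) and in 1211 of all 27305 windows (4.44%). AACTACA on either strand, the start of the motif of the factor ZNF143, was in 33 member windows (17.6%), in 16 windows of the other ZNF genes (9.14%) and in 931 of all windows (3.41%). The GC box GGGCGG was in 66% of member windows, 63.4% of windows of the other ZNF genes and 44.6% of all windows. CCAAT was in 52.7%, 45.1% and 35.7% in the same order, and TATAAA in 2.13%, 4% and 12%. All motifs were read on both strands and may overlap. Of the 10 members with the largest called difference between N_30 and N_28, 9 had a window and 5 of these held the ETS core or the ZNF143 start. Those 5, chosen because they hold a motif, are printed as examples, each 5′ to 3′ on the gene's strand with the matched letters in capitals. Windows with neither motif are not printed, so the 5 do not stand for all of the 10. ZNF160 is chr19:53103373-53103672 on the minus strand, and the others are on the plus strand: ZNF527 at chr19:37370849-37371148, ZNF470 at chr19:56567218-56567517, ZNF230 at chr19:44002707-44003006 and ZNF460 at chr19:57279732-57280031.
ZNF160: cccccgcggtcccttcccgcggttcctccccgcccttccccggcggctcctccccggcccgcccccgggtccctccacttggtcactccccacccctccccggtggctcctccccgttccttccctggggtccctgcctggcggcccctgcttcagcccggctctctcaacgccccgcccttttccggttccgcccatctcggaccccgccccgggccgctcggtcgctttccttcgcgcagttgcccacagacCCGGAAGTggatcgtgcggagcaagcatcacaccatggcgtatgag
ZNF527: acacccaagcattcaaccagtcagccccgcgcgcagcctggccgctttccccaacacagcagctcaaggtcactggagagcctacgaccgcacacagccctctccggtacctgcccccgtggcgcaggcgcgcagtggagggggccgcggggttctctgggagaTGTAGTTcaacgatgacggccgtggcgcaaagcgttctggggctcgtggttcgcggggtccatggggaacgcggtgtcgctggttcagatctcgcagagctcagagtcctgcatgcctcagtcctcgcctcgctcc
ZNF470: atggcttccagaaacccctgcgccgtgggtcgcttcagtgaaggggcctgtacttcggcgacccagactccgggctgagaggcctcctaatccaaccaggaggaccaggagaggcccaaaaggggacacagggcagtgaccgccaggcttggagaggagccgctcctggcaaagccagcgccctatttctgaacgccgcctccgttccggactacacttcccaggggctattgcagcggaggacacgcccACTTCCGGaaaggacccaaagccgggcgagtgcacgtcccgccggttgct
ZNF230: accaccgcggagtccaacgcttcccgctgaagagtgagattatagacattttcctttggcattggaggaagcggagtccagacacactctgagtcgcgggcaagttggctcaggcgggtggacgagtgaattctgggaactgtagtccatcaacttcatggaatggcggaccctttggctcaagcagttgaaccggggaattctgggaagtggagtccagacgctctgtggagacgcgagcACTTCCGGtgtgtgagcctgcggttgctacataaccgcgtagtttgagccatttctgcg
ZNF460: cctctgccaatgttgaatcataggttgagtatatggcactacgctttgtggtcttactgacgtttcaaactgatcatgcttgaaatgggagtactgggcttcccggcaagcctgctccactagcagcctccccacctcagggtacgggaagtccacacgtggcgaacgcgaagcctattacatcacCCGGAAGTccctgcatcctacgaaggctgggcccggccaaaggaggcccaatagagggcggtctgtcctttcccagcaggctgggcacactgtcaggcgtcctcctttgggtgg
The capitals mark the ETS core in ZNF160 and ZNF460 as spelled, its reverse complement in ZNF470 and ZNF230, and the reverse complement of the ZNF143 start in ZNF527. The ETS core was in 13 of 36 windows of members called lower in N_30 than in N_28 (36.1%) and in 29 of 152 windows of the other members (19.1%). The ZNF143 start, CCAAT and the GC box were less frequent in the called members, the ZNF143 start in 13.9% against 18.4%, CCAAT in 38.9% against 55.9% and the GC box in 61.1% against 67.1%, while TATAAA was in 1 and 3 windows. None of these differences was tested. A match is not a bound site.

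The members were mostly low. Mean levels over the 9 libraries ran from 1.01 CPM (ZNF433) to 162 CPM (ZNF579), with a median of 6.30 CPM against 13.1 CPM for the 206 ZNF genes of other autosomes that met the same level bound; 61 members reached 10 CPM and 3 reached 100 CPM. Per kilobase of exon the highest were ZNF579 (48.8 CPM per kb), ZNF787 (43.1), ZNF865 (26.2), ZNF146 (24.1), ZNF580 (19.7), ZNF428 (19.4), ZNF581 (13.2) and ZNF444 (10.8, a SCAN domain protein), against a median of 1.93 CPM per kb in the cluster that holds 6 of them and 0.593 to 1.94 in the other clusters of 3 or more members. ZNF146 codes for a protein made almost wholly of zinc fingers. ZNF580 and ZNF581 overlap on the same strand, so their counts are uncertain.

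The level bound chose the members, so its edge is given as a description. The nearest inside it were ZNF433 (1.01 CPM), ZNF730 (1.021), ZNF563 (1.14), ZNF57 (1.22) and ZNF66 (1.36). The nearest outside were ZNF284 (0.985 CPM), ZNF442 (0.968), ZNF347 (0.823), ZNF491 (0.737) and ZNF547 (0.681). Of the 40 genes outside, 24 were under 0.1 CPM and 12 had 0 counts in all 9 libraries, where 3 counts correspond to 0.131 to 0.182 CPM. The 40 were spread over both arms, with 8 of them in the cluster ZNF101 to ZNF254, 9 in ZNF653 to ZNF791 and 8 in ZNF175 to ZNF331.

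**Figure D1:**
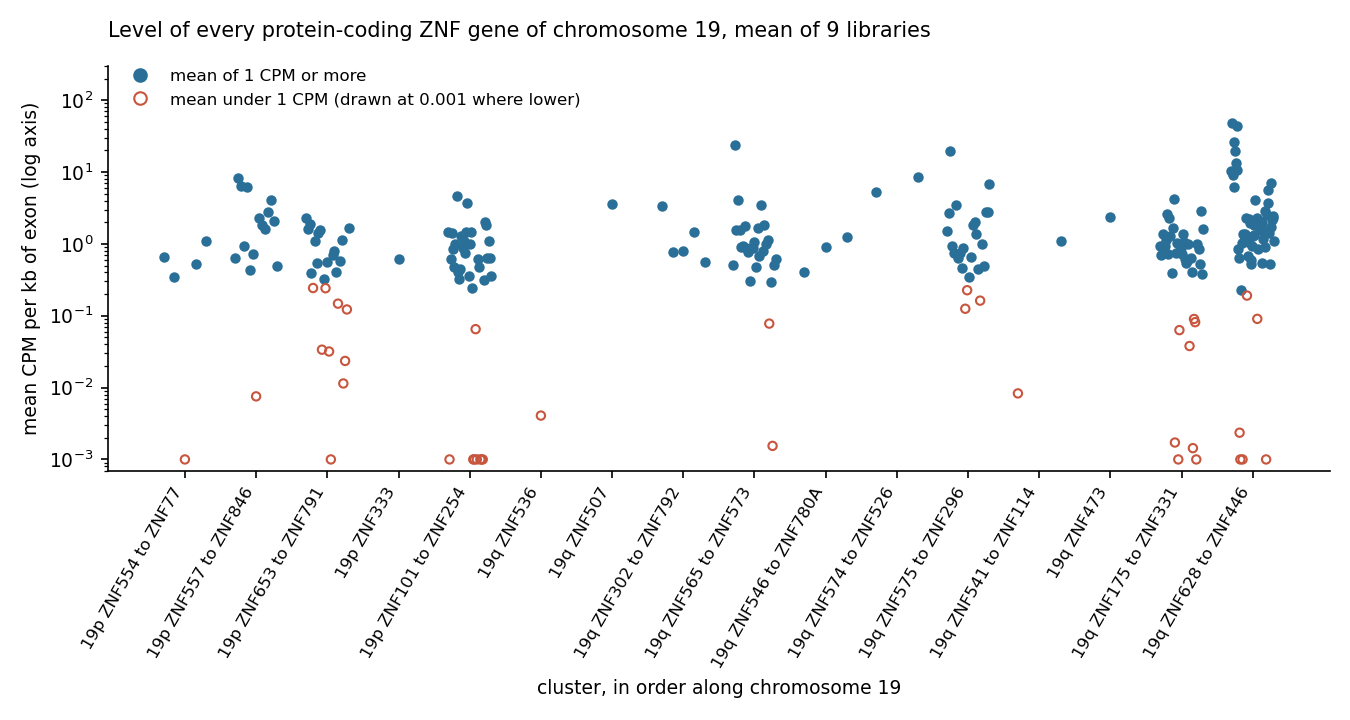
Mean level of every protein-coding ZNF gene of chromosome 19 over the 9 libraries, in CPM per kilobase of exon on a log axis, by cluster in order along the chromosome. Filled points are the 207 members and open points the 40 genes under 1 CPM; the highest, ZNF579 at 48.8 CPM per kb, lies in the last cluster of 19q.

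N_30 and N_28 differed most. At an adjusted p under 0.05 (edgeR quasi-likelihood test, Benjamini-Hochberg), 39 of the 207 members (18.8%) fell below their N_28 level in N_30 and 0 rose above it, against a background over all 15019 genes of 8.96% lower and 9.38% higher. The median log2 fold change was -0.19 with 172 members below 0, where the median of all genes was 0.00 and that of the 206 ZNF genes of other autosomes was -0.01 (9 higher, 11 lower). The 39 comprised 35 members of 19q and 4 of 19p, and their differences ran from -0.20 (ZNF787) to -1.56 (ZNF114) with a median of -0.42. In all 39 the 3 N_30 libraries were below the 3 N_28 libraries. The 39 were chosen by the test of these same libraries, so this adds no support to the calls. At an unadjusted p under 0.05 there were 63 members (30.4%), 61 lower and 2 higher, against 31.1% of all genes in both directions, so that the total share was near the background.

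The called share differed with level. It was 8 of 82 members (9.76%) at 1 to 5 CPM, 11 of 64 (17.2%) at 5 to 10, 12 of 38 (31.6%) at 10 to 20 and 8 of 23 (34.8%) from 20 CPM up, against 5.75%, 9.23%, 8.98% and 11.5% of all genes in the same ranges. The median difference of the members in these 4 ranges was -0.18, -0.19, -0.21 and -0.20, and the median SE was 0.19, 0.13, 0.11 and 0.08.

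The member with the widest gap was ZNF114 (chr19:48270102-48287608, plus strand; coordinates of genes are GENCODE release 29 on GRCh38), a KRAB zinc finger gene. It stood at 1.503, 2.26 and 1.74 CPM in N_30, 5.05, 5.99 and 5.28 CPM in N_28 and 2.20, 3.27 and 2.55 CPM in control libraries. All N_28 values lay above all others, while the N_30 and control values overlapped. N_30 against N_28 gave a log2 fold change of -1.56 (SE 0.19, adjusted p = 8.94e-05). Against control it was -0.53 in N_30 (SE 0.21, adjusted p = 0.335) and 1.024 in N_28 (SE 0.18, adjusted p = 0.0024).

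ZNF160 (chr19:53066606-53103436, minus strand), a KRAB protein gene, had 3.13, 1.96 and 2.27 CPM in N_30, 3.80, 4.06 and 5.10 CPM in N_28 and 3.96, 3.06 and 3.63 CPM in control libraries. The control values lay between and overlapped those of both knock-down sets. Its difference between N_30 and N_28 was -0.84 (SE 0.20, adjusted p = 0.00973). ZNF527 (chr19:37371061-37393066, plus strand), whose window above holds the ZNF143 start, had 2.65, 4.93 and 3.51 CPM in N_30, 6.64, 6.59 and 6.06 CPM in N_28 and 4.79, 5.26 and 5.02 CPM in control libraries. Its N_28 values were above all others and its N_30 values were the most scattered, with a difference of -0.79 (SE 0.18, adjusted p = 0.00758).

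ZNF71 (chr19:56595264-56626481, plus strand) separated the 3 groups without overlap, at 4.99, 5.13 and 4.63 CPM in N_30, 7.41, 8.40 and 7.11 CPM in N_28 and 7.04, 5.97 and 6.14 CPM in control libraries. The difference between N_30 and N_28 was -0.63 (SE 0.12, adjusted p = 0.00298), while neither knock-down set was called against control (adjusted p = 0.233 for N_30 and 0.213 for N_28). ZNF507 (chr19:32345594-32387667, plus strand), a well expressed gene with no neighbouring ZNF gene within 1 Mb, likewise showed 3 levels, at 35.5, 35.6 and 32.3 CPM in N_30, 45.8, 47.1 and 44.2 CPM in N_28 and 37.6, 42.6 and 39.8 CPM in control libraries, with a difference of -0.41 (SE 0.07, adjusted p = 0.00108).

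The rest of the 10 largest falls were KRAB zinc finger genes at low levels. Mean levels in N_30 were 1.69 CPM for ZNF470, 1.85 CPM for ZNF607, 2.16 CPM for ZNF230, 2.17 CPM for ZNF880, 2.39 CPM for ZNF799 and 3.32 CPM for ZNF460, against 2.71, 3.13, 3.51, 3.66, 3.91 and 4.88 CPM in N_28 in the same order. Their log2 differences, again in that order, were -0.70, -0.77, -0.69, -0.77, -0.71 and -0.56, with adjusted p from 0.00989 (ZNF607) to 0.032 (ZNF460). For ZNF799, 23.98% of its 50-base windows also occur in transcripts of another gene, so its count is uncertain.

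Among the other called members are 3 with known roles, chosen for those roles after their values had been seen. ZNF91, whose protein represses SVA retrotransposons, had 15.7, 13.9 and 16.3 CPM in N_30, 23.1, 21.9 and 18.8 CPM in N_28 and 19.1, 21.4 and 20.9 CPM in control libraries, a difference of -0.47 between N_30 and N_28 (SE 0.10, adjusted p = 0.00479). Here the N_28 and control libraries overlapped and the N_30 libraries were low. ZNF274, which directs SETDB1 to the 3′ ends of zinc finger genes, averaged 43.3 CPM in N_30 and 52.3 CPM in N_28 (-0.27, SE 0.09, adjusted p = 0.0423). ZNF331, an imprinted gene, differed by -0.38 (SE 0.09, adjusted p = 0.00806).

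**Figure D2:**
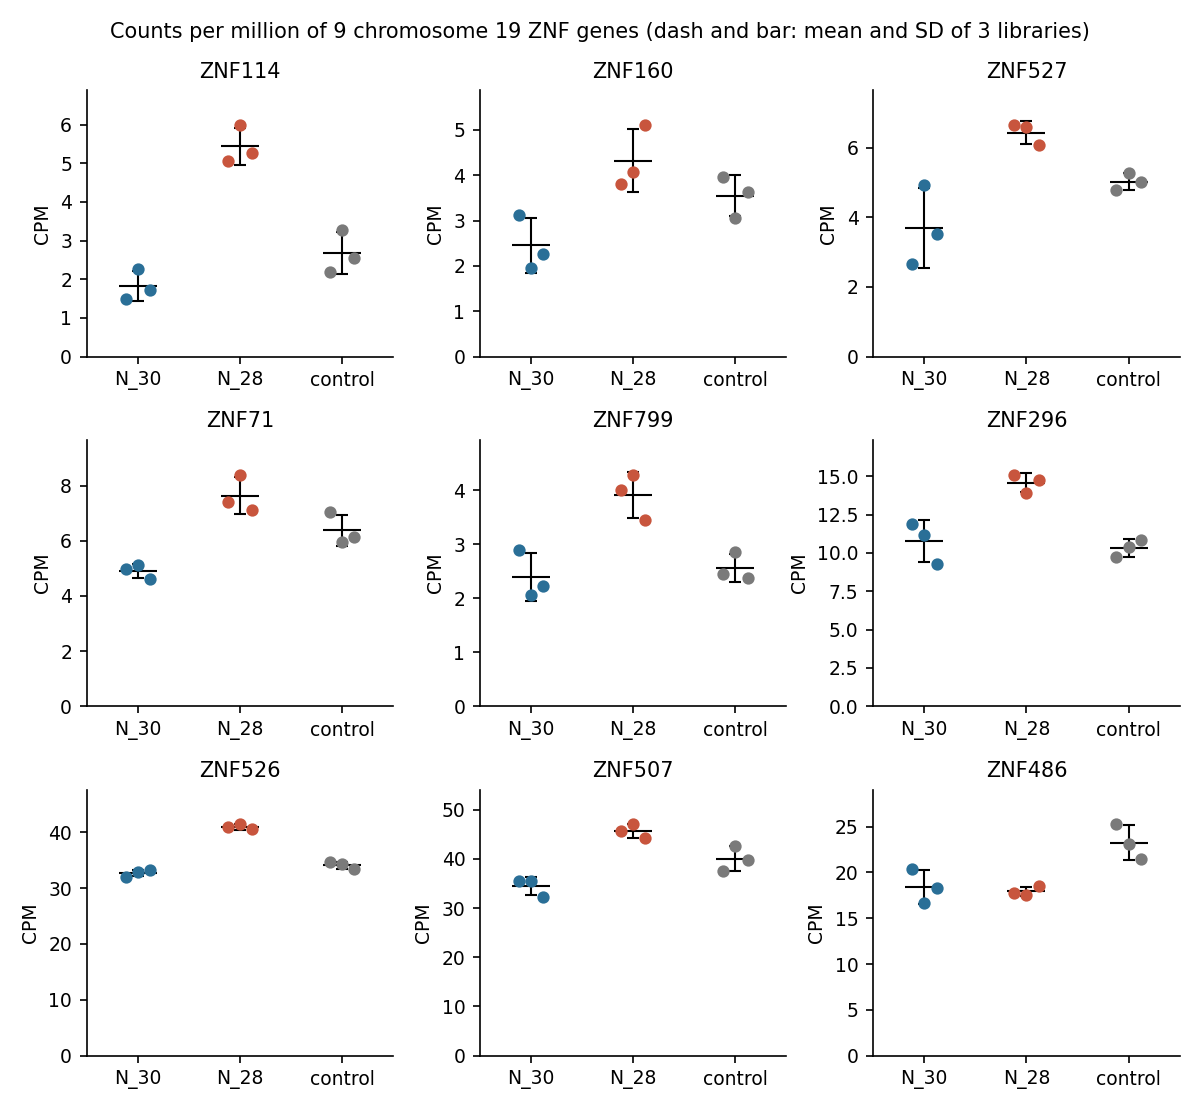
CPM of 9 members in each library of N_30, N_28 and control, with the mean and SD of 3 libraries as a dash and bar. In 8 of the panels N_28 is the highest group; ZNF486 is lower in both knock-down sets than in control libraries.

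Leaving out N_28 library 1, 2 or 3 or N_30 library 2 or 3 left 19, 21, 24, 22 and 21 called members, and leaving out the 3 libraries numbered 3 left 14, of which 13 were lower. The other was called higher: ZNF317, a KRAB gene at 35.9, 37.1 and 31.0 CPM in N_30 and 28.97, 29.2 and 29.8 CPM in N_28 (0.24 with all libraries, adjusted p = 0.0509). ZNF317 was called higher in 6 settings in all: without the libraries numbered 3 (adjusted p = 0.0298), without N_30 library 3 (0.0111), without control library 1 (0.0483), with a replicate block (0.0272), with upper quartile scaling (0.0406) and among genes of at least 5 CPM (0.0411). The count of 0 higher members thus does not hold in these. Over all genes, 2755 were called in either direction with all libraries. Leaving out N_28 library 1, 2 or 3 or N_30 library 2 or 3 left 1975, 1850, 2052, 2015 and 2444. Leaving out the 3 libraries numbered 3 left 2013, so calls fell more steeply among the members than over all genes. The share of members above the background with all libraries was thus not stable.

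Clusters were formed by joining neighbouring ZNF genes less than 1 Mb apart, which gave 16 clusters, 10 of them with 3 or more members. Of these 10, 8 had a median below 0 between N_30 and N_28. On 19p the exceptions were the outermost: ZNF554 to ZNF77 (4 members) had a median of 0.02, and ZNF557 to ZNF846 (14 members) had 0.04, with 9 members above 0 and none called. The next clusters inward had medians below 0, ZNF653 to ZNF791 with -0.21 (13 of 16 members below 0, 1 called) and ZNF101 to ZNF254 with -0.17 (23 of 29 below 0, 3 called).

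On 19q every cluster of 3 or more members had a median below 0 between N_30 and N_28. The medians were -0.20 in ZNF302 to ZNF792 (5 members, none called), -0.23 in ZNF565 to ZNF573 (7 of 25 called), -0.21 in ZNF546 to ZNF780A (3 members, none called), -0.26 in ZNF575 to ZNF296 (4 of 21 called), -0.17 in ZNF175 to ZNF331 (5 of 31 called) and -0.20 in ZNF628 to ZNF446 (14 of 53 called, 50 below 0). The small clusters held ZNF333, ZNF507, ZNF473, ZNF114 and the pair ZNF574 and ZNF526, and all of these but ZNF333 were called. ZNF536, alone in its cluster, was under the level bound.

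Apart from members named so far, the highest member of a cluster was often not among those called. ZNF146 had 95.4, 98.0 and 89.9 CPM in N_30, 114, 115 and 95.3 CPM in N_28 and 85.5, 108 and 98.8 CPM in control libraries (-0.19, SE 0.09, adjusted p = 0.156 between N_30 and N_28). ZNF579 stood at 142, 148 and 165 CPM in N_30, 162, 165 and 186 CPM in N_28 and 174, 144 and 172 CPM in control libraries (-0.17, SE 0.08, adjusted p = 0.188). In both genes N_28 had the highest mean, and all 3 groups overlapped. ZNF428 had 33.1, 35.2 and 36.7 CPM in N_30, 35.3, 35.4 and 35.2 CPM in N_28 and 37.1, 34.8 and 31.4 CPM in control libraries (-0.01, SE 0.07, adjusted p = 0.936), with all 3 groups overlapping. For the other cluster leaders the N_30 over N_28 value was -0.06 for ZNF554 (adjusted p = 0.858), 0.01 for ZNF791 (adjusted p = 0.965), -0.19 for ZNF333 (adjusted p = 0.289), -0.20 for ZNF302 (adjusted p = 0.222), -0.14 for ZNF780A (adjusted p = 0.414) and -0.28 for ZNF480 (adjusted p = 0.0668). The cluster leaders that were called are ZNF507 and ZNF114, given above, ZNF526, and ZNF473, whose protein takes part in histone mRNA processing. ZNF473 had 15.99, 15.7 and 13.2 CPM in N_30, 19.5, 19.4 and 18.8 CPM in N_28 and 14.6, 17.1 and 14.8 CPM in control libraries (-0.37, SE 0.10, adjusted p = 0.0186). ZNF787 stood at 140.0, 161 and 149 CPM in N_30, 181, 164 and 173 CPM in N_28 and 159, 151 and 144 CPM in control libraries (-0.20, SE 0.07, adjusted p = 0.047), the smallest called difference at one of the highest levels.

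**Figure D3:**
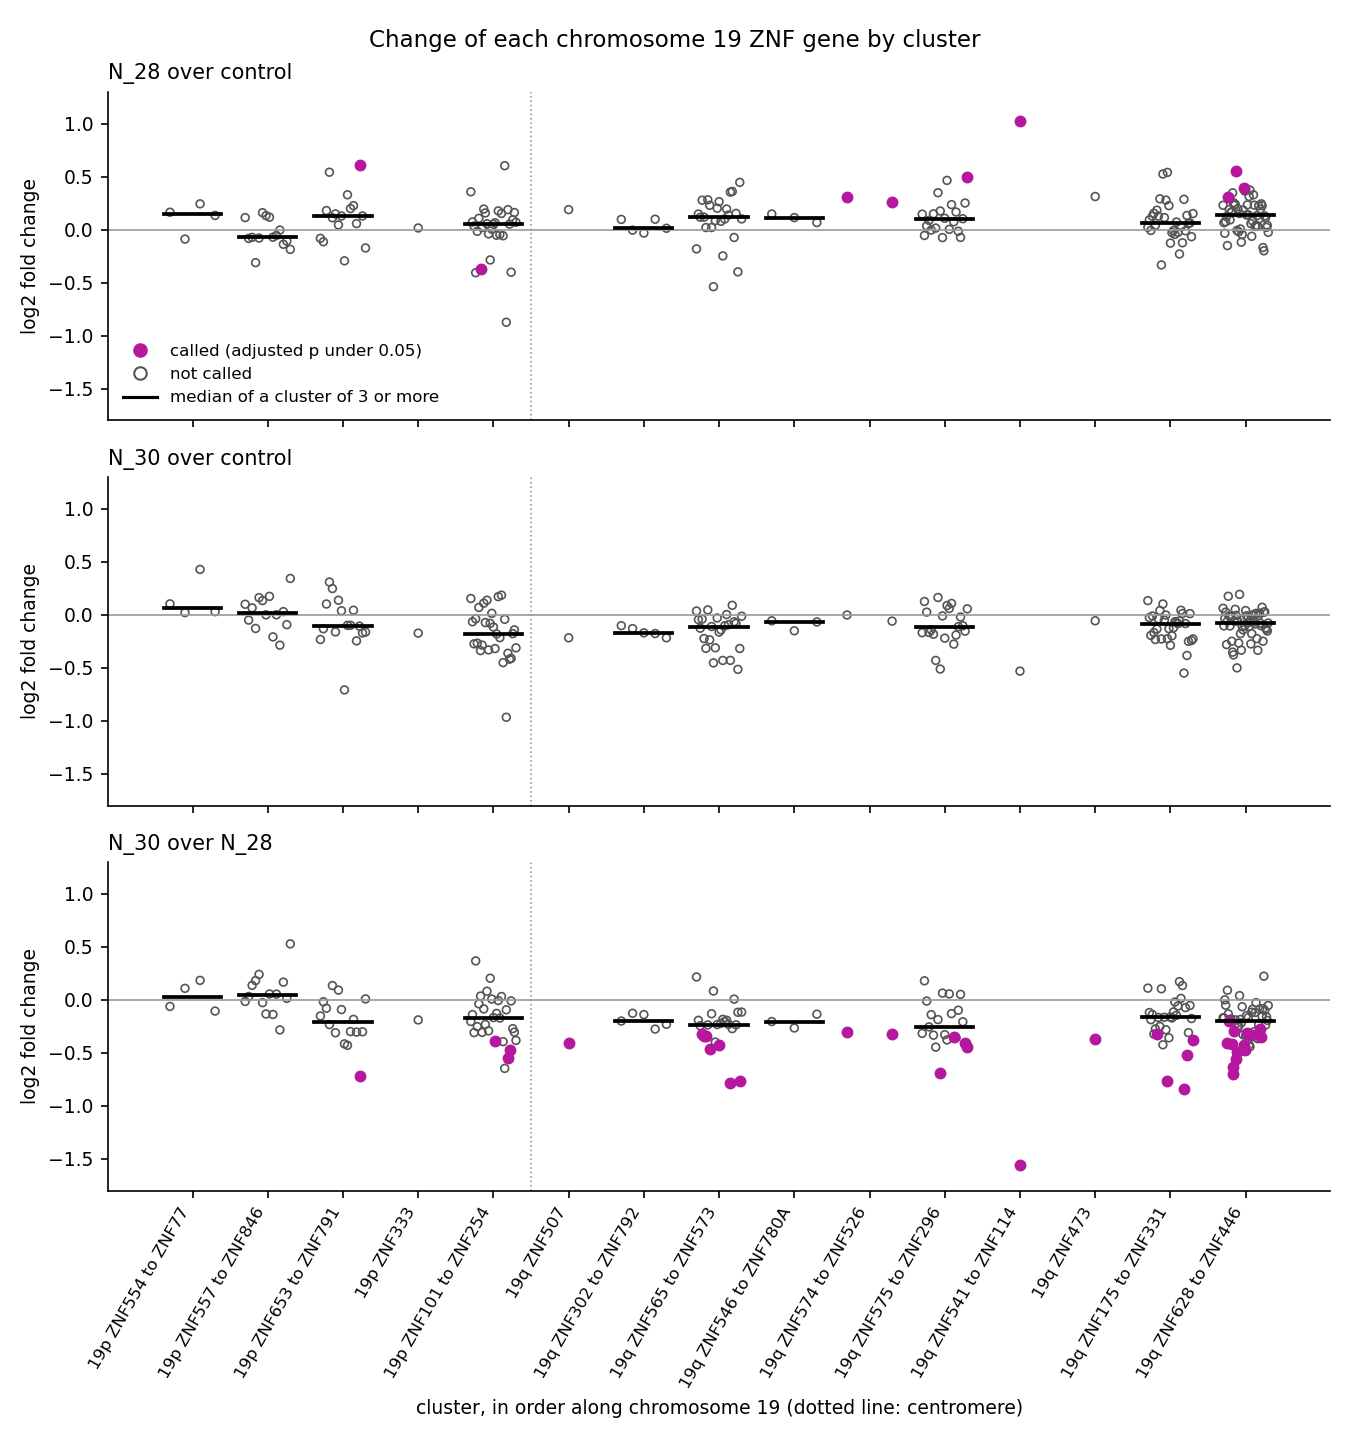
Log2 fold change of each of the 207 members in 3 comparisons, by cluster in order from 19p to 19q. Filled points passed an adjusted p under 0.05 and bars are cluster medians; in the panel of N_30 over N_28 all 39 filled points lie below 0 and 35 of them are on 19q.

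Between N_30 and N_28, the other protein-coding genes of 19q had a median on the same side of 0 as the members of that arm, and those of 19p did not. The 333 other protein-coding genes of 19q at the same level bound had a median of -0.15 in N_30 against N_28, with 79 lower and 11 higher (23.7% and 3.30%). The 143 ZNF members of that arm had -0.22 and 24.5% lower. The called share depends on level, and the sets differ in level. At a mean of 1 to 20 CPM, 12 of 115 others (10.4%, median -0.13) and 27 of 124 ZNF members (21.8%, median -0.22) were lower. The 348 others on 19p had a median of 0.03, with 11 lower and 35 higher (3.16% and 10.1%). The 64 ZNF members there had -0.12 and 4 lower (6.25%), where 8.96% of all genes were lower and 9.38% higher. At a mean of 1 to 20 CPM, the 103 others of 19p had a median of 0.01, with 7 lower and 2 higher (6.8% and 1.94%). The 60 ZNF members of 19p in that range had -0.13 and 4 lower (6.67%). Inside the span of ZNF653 to ZNF791, the 3 other genes tested were all called higher in N_30 than in N_28 with a median of 0.37, while 13 of the 16 ZNF members stood below 0. Within ZNF628 to ZNF446 the 16 other genes had a median of -0.15, near the -0.20 of the members, and none was called. In N_30 against control the other coding genes of 19q had a median of -0.02 (126 above 0, 207 below), beside -0.10 for the ZNF members of that arm (29 above, 114 below). In N_28 against control the medians were 0.12 and 0.11. No test of a difference between these sets was made.

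In stretches of 5 Mb, the ZNF members had medians of 0.02 and 0.04 in the outer 2 stretches of 19p and of -0.19, -0.20 and -0.17 in the inner 3. The other coding genes had 0.02, 0.04, 0.02 and 0.06 in the first 4 of these and none were tested in the fifth. Along 19q the other coding genes were below 0 in all stretches, from -0.09 to -0.19. ZNF members were absent from the first stretch of 19q and had medians from -0.17 to -0.999 in the rest, where the -0.999 rests on 2 genes, ZNF114 and ZNF296.

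**Figure D4:**
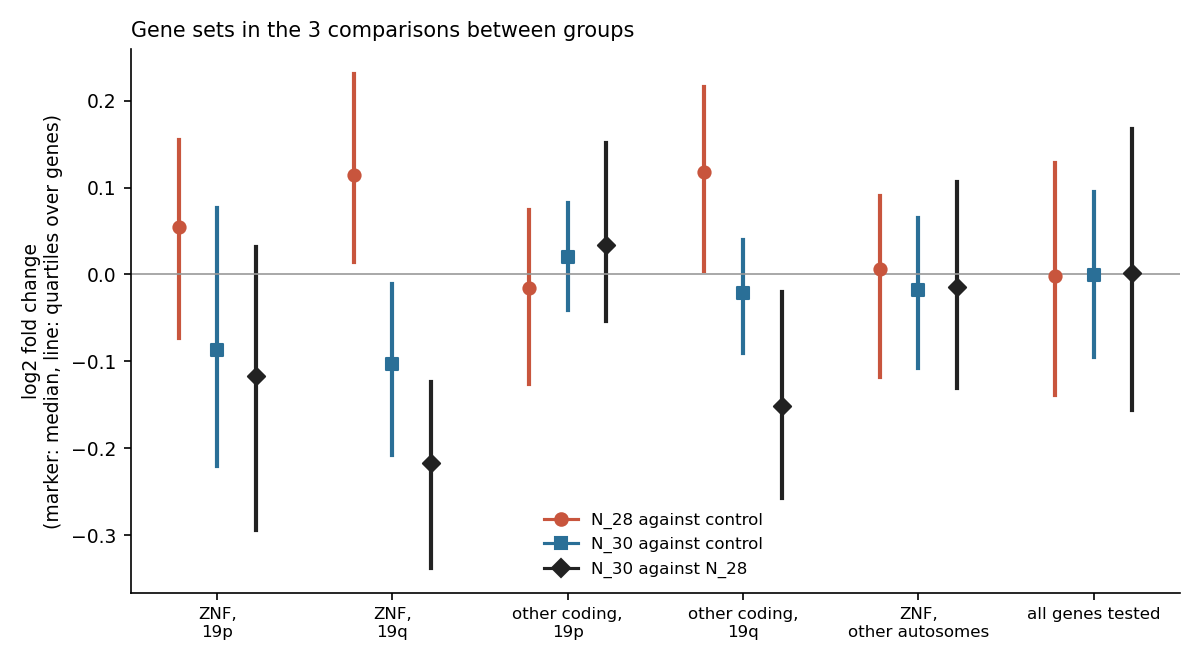
Median log2 fold change (marker) and quartiles over genes (line) of 6 gene sets in 3 comparisons. ZNF members and other coding genes of 19q both lie above 0 in N_28 over control (0.11 and 0.12) and below 0 in N_30 over N_28 (-0.22 and -0.15), with -0.10 and -0.02 in N_30 over control, while on 19p only the ZNF set lies below 0 between N_30 and N_28 (-0.12 against 0.03).

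Against control, N_28 had 8 members higher and 1 lower. The backgrounds over all genes were 4.49% higher and 5.75% lower, so the 3.86% of members called higher is near the background and the 0.483% called lower is below it. The median log2 fold change was 0.10 with 149 of 207 members above 0, while the other autosomes' ZNF genes had 0.01, with 2 higher and 8 lower. Of the 8 called higher, 7 lie on 19q.

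ZNF114 led, as given above. ZNF799 rose by 0.61 (SE 0.18, adjusted p = 0.0432), with 3.99, 4.28 and 3.45 CPM in N_28 against 2.44, 2.86 and 2.37 CPM in control libraries. ZNF460 rose by 0.55 (SE 0.17, adjusted p = 0.0488), with 4.72, 5.66 and 4.27 CPM in N_28 against 3.37, 3.52 and 3.05 CPM in control. ZNF296, a C2H2 gene without a KRAB domain, rose by 0.50 (SE 0.10, adjusted p = 0.00719), with 15.1, 13.9 and 14.8 CPM in N_28 against 9.72, 10.4 and 10.8 CPM in control libraries. The N_28 and control libraries did not overlap in any of these genes. All 8 members called higher were chosen by the test of these same libraries, so gaps between libraries add no support to the calls.

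The other 4 rises were smaller: ZNF549 by 0.39 (adjusted p = 0.0454), ZNF581 by 0.31 (adjusted p = 0.0355), ZNF574 by 0.30 (adjusted p = 0.0226) and ZNF526 by 0.26 (adjusted p = 0.0108). ZNF526 stood at 32.0, 32.9 and 33.2 CPM in N_30, 40.9, 41.5 and 40.5 CPM in N_28 and 34.6, 34.3 and 33.5 CPM in control libraries, so that the N_28 libraries were above all others. ZNF574 had 24.6, 21.3 and 21.7 CPM in N_30, 27.96, 27.95 and 27.5 CPM in N_28 and 21.6, 23.1 and 22.8 CPM in control libraries, again with N_28 above all others. ZNF581 had 22.8, 25.1 and 21.5 CPM in N_30, 26.2, 23.9 and 25.9 CPM in N_28 and 20.7, 21.7 and 19.1 CPM in control libraries, where N_30 and N_28 overlapped; 18.4% of its windows occur in another gene. For 7 of the 8 genes the N_30 value against control was between -0.11 and 0.18, and ZNF114 was the exception. All but ZNF581 were also called lower in N_30 than in N_28. Leaving out control library 1 or 3 left 4 called members in N_28, leaving out N_28 library 1 or 2 left 3, and leaving out the 3 libraries numbered 3 left 4. Over all genes these fits called 1153, 1206, 967, 1028 and 1251 in either direction, against 1538 with all libraries.

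ZNF486 (chr19:20167228-20200490, plus strand), a KRAB gene of the cluster ZNF101 to ZNF254 and its highest member, was the single member lower in N_28. It had 20.3, 16.6 and 18.3 CPM in N_30, 17.7, 17.6 and 18.5 CPM in N_28 and 25.3, 23.1 and 21.4 CPM in control libraries. Every knock-down library was below every control library. The gene was chosen by tests of these same libraries, so this adds no support to its calls. Against control its log2 fold change was -0.34 in N_30 (SE 0.09, adjusted p = 0.135) and -0.37 in N_28 (SE 0.09, adjusted p = 0.0198), and it was 0.04 between N_30 and N_28 (adjusted p = 0.839). With both knock-down sets against control it was -0.36 (SE 0.08, adjusted p = 0.0381), the single called member, against backgrounds of 0.533% higher and 1.25% lower; the median of the members in that comparison was -0.00. Leaving out control library 1 or 2, any N_28 library or N_30 library 2 left 0 members called there, and leaving out N_30 library 3 left 2, the added gene being ZNF730. Over all genes these fits called 134, 198, 168, 206, 206, 180 and 322 in the same order, against 268 with all libraries.

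N_30 against control gave 0 called members in either direction, where 0.459% of all genes were called higher and 0.406% lower. The median was -0.09 with 153 of 207 members below 0, and 26 members (12.6%) had an unadjusted p under 0.05, all lower, against 11.4% of all genes in both directions. The lowest adjusted p was 0.0726 for ZNF91 (-0.42, SE 0.10), whose values are given above. DESeq2 called ZNF91 (adjusted p = 0.0282). With the replicate number as a block, ZNF91 (-0.42, adjusted p = 0.0302) and ZNF486 (-0.34, adjusted p = 0.0449) were called. Over all genes, N_30 against control gave 130 calls in the main fit, 257 by DESeq2 and 424 with the block. Same-numbered N_30 and control libraries deviated together weakly, but the labels do not say that the numbers mark pairs. Leaving out control library 1 gave 1 called member, ZNF121, and 103 calls over all genes.

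By cluster, the N_30 medians against control were 0.07 and 0.02 in the outer 2 clusters of 19p and below 0 in the other 8, from -0.07 in ZNF546 to ZNF780A and ZNF628 to ZNF446 to -0.18 in ZNF101 to ZNF254. The N_28 medians against control were above 0 in 9 of the 10 clusters, from 0.01 in ZNF302 to ZNF792 to 0.15 in ZNF554 to ZNF77, the exception being ZNF557 to ZNF846 at -0.07. These comparisons share the control libraries. Of the 39 members called between N_30 and N_28, 37 were above control in N_28 and below control in N_30, and 32 were called in neither comparison with control. The 39 were chosen for a gap between N_30 and N_28, which favours values on opposite sides of control. No such count over all called genes is set beside it, so it is no trait of these members.

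Library by library, the median log2 deviation of the 207 members from the control mean was -0.03, -0.09 and -0.16 in N_30, 0.09, 0.11 and 0.08 in N_28 and -0.06, 0.05 and -0.00 in control libraries. The N_28 libraries were above all others and the N_30 and control libraries overlapped. The summed level of the members was 2256, 2238 and 2173 CPM in N_30, 2528, 2523 and 2503 CPM in N_28 and 2333, 2378 and 2316 CPM in control libraries, without overlap between groups. Between libraries of the same number, N_30 minus control was 0.02, -0.13 and -0.15 for numbers 1, 2 and 3, so the sign for number 1 differed. N_30 minus N_28 was -0.13, -0.19 and -0.21, and N_28 minus control was 0.13, 0.05 and 0.09.

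The control libraries also differed among themselves. Control library 1 had the lowest ZNF members of 19p (-0.08) and the highest other coding genes of 19p (0.08) and 19q (0.07) among the controls, and control library 2 had 0.08 for the ZNF members of 19p with -0.06 for the others on each arm. The ZNF genes of other autosomes ranged from -0.04 to 0.02 over the 9 libraries. The members had a median GC content of 42.3% in their longest transcript against 45.5% in the other autosomes' ZNF genes; its part in these shifts was not tested.

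**Figure D5:**
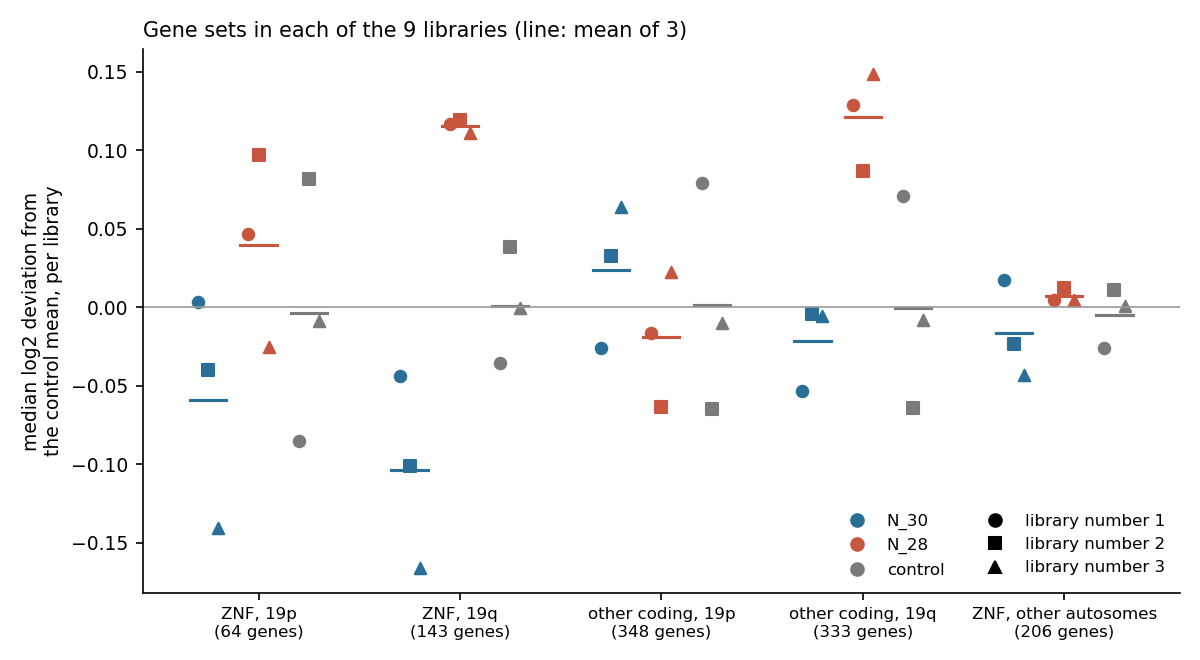
Median log2 deviation from the control mean for 5 gene sets in each library, with N_30, N_28 and control side by side and marker shapes for library numbers. The ZNF genes of 19q are at 0.11 to 0.12 in the N_28 libraries, above the -0.17 to -0.04 of N_30 and the -0.04 to 0.04 of control libraries; the ZNF genes of other autosomes stay within -0.04 to 0.02.

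Counting limits bear on these genes. The median member had 2.31% of its 50-base exon windows in common with transcripts of another gene; 137 members were under 5%, 30 at 0% and 14 at 20% or more, of which 2, ZNF799 and ZNF724, were among the 39. Among the 137 members under 5%, the median between N_30 and N_28 was -0.23. For 107 of the 207 members a gene on the other strand overlaps, and since it is not known whether the counting used strand, reads of the 2 genes cannot be told apart.

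Of 28 genes of the KRAB repressor machinery and of the methylation marks on zinc finger clusters, all tested, 4 were called lower and 0 higher when N_30 was set against N_28, with a median of -0.08. That is 14.3% lower, against 8.96% lower and 9.38% higher over all genes. They were DNMT1, the maintenance DNA methyltransferase (359.5 ± 15.6 CPM in N_30 and 430.3 ± 7.21 CPM in N_28; -0.26, adjusted p = 0.00353), DAXX, an H3.3 chaperone (-0.29, adjusted p = 0.00344), EHMT2, an H3K9 methyltransferase (-0.30, adjusted p = 0.0132), and CBX1, a heterochromatin protein (-0.20, adjusted p = 0.0311). TRIM28, which like DNMT1 lies on chromosome 19, stood at 1334 ± 91.3 CPM in N_30, 1528 ± 58.5 CPM in N_28 and 1338 ± 95.9 CPM in control libraries (SD, n = 3 each; -0.19, adjusted p = 0.0644), and SETDB1 had a difference of 0.04 (adjusted p = 0.822). None of the 28 was called against control in either knock-down set or in both together. Over all genes, 4.49% were higher and 5.75% lower in N_28, and 0.459% and 0.406% in N_30. With both together these shares were 0.533% and 1.25%.

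Of 40 other zinc finger genes outside the ZNF-number names of chromosome 19, 4 were higher in N_30 than in N_28 and 9 were lower, with a median of -0.05. These are 10% and 22.5% of the list, against 9.38% higher and 8.96% lower over all genes. KLF5 was lower (36.8 ± 3.21 CPM in N_30 and 49.0 ± 0.914 CPM in N_28; -0.41, adjusted p = 0.000895), while KLF13 (0.51, adjusted p = 0.0354), GLIS2 (0.33, adjusted p = 0.0152) and PRDM4 (0.31, adjusted p = 0.0112) were higher. The fourth higher factor was EGR1 (1.18, adjusted p = 0.0124), and lower ones included KLF6 (-0.34, adjusted p = 0.00413), SP3 (-0.22, adjusted p = 0.0092) and KLF3 (-0.28, adjusted p = 0.01); these 4 were chosen after their values had been seen. CTCF, which shapes chromatin loops, had -0.04 (adjusted p = 0.65) and YY1 had -0.07 (adjusted p = 0.454). In N_28 against control 1 of the 40 was called higher (KLF5) and 1 lower (KLF13), 2.5% each against 4.49% and 5.75% of all genes. None was called in N_30, where 0.459% of all genes were higher and 0.406% lower.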

How the data were processed

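The authors deposited raw counts, whole and not normalized, for 60448 rows with human Ensembl identifiers in 9 libraries of total RNA. No source used here names the aligner, counter, annotation or strand setting. The build in the submitters' processing notes is mm8, a mouse assembly, although the identifiers are human. Names came from the gene name table (56434 rows) or GENCODE release 29 on GRCh38 (434), and 3580 rows had none; coordinates are from GENCODE. Counts were fitted as deposited with edgeR 4.0.16 (R 4.3.3): TMM scaling, filterByExpr with a minimum count of 10, a quasi-likelihood fit with a term per group over all 9 libraries, and Benjamini-Hochberg adjustment over the 15019 genes tested, with a call at an adjusted p under 0.05. Both knock-downs against control is the mean of the knock-down terms minus control. SEs are the size of the log2 fold change divided by the root of F. The common biological coefficient of variation was 0.0783. CPM are counts scaled to library totals times the TMM factors. Library medians use log2(CPM + 0.5).

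Clusters part at gaps over 1 Mb, and the arms at 26 Mb. Members, lists and the rule for named genes were chosen with earlier results of these data known. Named members are the 10 largest rises and falls among called members of each comparison, the 8 highest per kb and the highest of each cluster. Those called in 2 or more comparisons and the 5 nearest each side of the bound are named too. Of the 28 KRAB partners and 40 other zinc finger genes, up to 4 that were called in any comparison are named, and up to 2 well-known others. The up to 4 are those with the lowest adjusted p with both knock-downs against control. Other names were chosen after seeing values. Alternatives were DESeq2 1.42.0, other scalings, filters, gaps, level bounds, only the groups compared, a replicate block and leaving out each library. Same-numbered N_30 and control libraries deviated together (correlations of 0.122, 0.169 and 0.306 over genes), N_28 and control libraries did not in every pair (-0.0588 to 0.142), nor did N_30 and N_28 (-0.0253 to 0.235). Pairs of libraries within a group differed by more than sampling noise (chi-square per gene of 3.64 to 12.7). The fit was tested on simulated counts. Floors cover counting error only.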

Additional observations from a re-analysis of the deposited data

Results flagged for a closer look

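The values against control of N_30 and N_28 differed, by the direct test of N_30 against N_28, for 17 of the members named by the rule above. ZNF91, ZNF274, ZNF331 and ZNF724, named outside that rule, were also called and are not counted here. The 17 are as follows. The log2 difference was -1.56 for ZNF114, -0.84 for ZNF160, -0.79 for ZNF527, -0.77 for ZNF880, -0.77 for ZNF607, -0.71 for ZNF799, -0.70 for ZNF470, -0.69 for ZNF230, -0.63 for ZNF71 and -0.56 for ZNF460. It was -0.44 for ZNF296, -0.42 for ZNF549, -0.41 for ZNF507, -0.37 for ZNF473, a gene of histone mRNA processing, -0.32 for ZNF526, -0.31 for ZNF574 and -0.20 for ZNF787. Adjusted p ran from 8.94e-05 (ZNF114) to 0.047 (ZNF787) in edgeR's quasi-likelihood test. In 16 of the 17 the N_28 value was above control and the N_30 value below, and ZNF296 was above control in both (0.06 in N_30 and 0.50 in N_28). Choosing genes by the gap between N_30 and N_28 favours such opposite signs.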

How the results depend on the processing

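The median log2 fold change of the members kept its size within the spread between libraries under all alternatives: -0.23 to -0.17 in N_30 against N_28, -0.12 to -0.06 in N_30 against control, 0.08 to 0.13 in N_28 against control, and -0.02 to 0.04 with both knock-downs together, where the sign was not stable. No named call changed direction. Over all genes, N_30 against N_28 gave 2755 calls in the main fit, 3673 with a replicate block and 2013 without the libraries numbered 3. The count of called members in N_30 against N_28 was 19 to 41 when leaving out 1 library each, 48 with a replicate block and 14 without the 3 libraries numbered 3, a setting chosen after seeing the data; with the replicate block all 39 were among the 48, and without the numbered libraries 11 were among the 14. In N_28 against control the count was 3 to 10 when leaving out 1 library each. It was 16 with a replicate block and 4 without the 3 libraries numbered 3. Over all genes it was 967 to 1712, 2301 and 1251 in these settings, against 1538 in the main fit. In N_30 against control the count of called members was 0 to 1 when leaving out 1 library each and 2 with a replicate block. It was 2 with no filter on low counts and 1 by DESeq2. Over all genes it was 58 to 180, 424, 523 and 257, against 130 in the main fit. With both knock-downs the count of called members was 0 to 2 when leaving out 1 library each and 2 with no filter. Over all genes it was 134 to 322 and 705, against 268 in the main fit. The replicate block changed none of the 27 named calls. The labels do not say that the numbers mark a shared culture or day. Same-numbered libraries deviated together at every number only for N_30 and control, and weakly. ZNF460 and ZNF549 in N_28 against control were the least stable named calls, lost in 10 of 16 and 10 of 17 settings; ZNF114, ZNF507, ZNF527 and ZNF71 were called in N_30 against N_28 in every setting. OPA1 between N_30 and N_28 (0.21, adjusted p = 0.0265) ranged over 0.19 to 0.24 when leaving out 1 library each, with adjusted p at or over the threshold in 5 of these fits, and was 0.21 with no filter and 0.23 without the 3 libraries numbered 3, where it was no longer called either. A gap of 2 Mb gave 6 clusters of 3 or more members in place of 10, 5 of them below 0 between N_30 and N_28. The causes were not tested. Low levels limit these genes: the median SE of the N_30 against N_28 difference was 0.19 at 1 to 5 CPM and 0.08 from 20 CPM up.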

Other observations

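Chromosome 19 also holds 18 ZNF pseudogenes in the table, of which 7 were tested. Between N_30 and N_28 their median log2 fold change was -0.31, with 5 of 7 below 0 and none called. ZNF321P had the largest difference (-1.12, adjusted p = 0.0701), at 0.511 CPM on average, and ZNF542P, the highest at 11.7 CPM, had -0.31 (adjusted p = 0.101). At an adjusted p under 0.05 in the same edgeR fit, 8.96% of all genes were lower and 9.38% higher in N_30 than in N_28.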
